A study of Mus musculus with 10 samples.

Results

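The 10 genes described are ubiquitin ligase genes of muscle, regulators of muscle mass and a muscle kinase gene. They are the ubiquitin ligase genes Fbxo32, Trim63, Trim54, Trim55, Trim72 and Asb2, the FoxO transcription factor genes Foxo1 and Foxo3, the myostatin gene Mstn, and Srpk3. They were taken by gene name from the array, with every probe that carries one of these names, and make up 10 of the 34607 distinct gene names on it. They have 12 probes of 60 bases, 2 each for Trim63 and Foxo1. Expression was measured in C2C12, an established mouse myoblast line that can form multinucleated myotubes in culture. The cells were transfected by lipid reagent with a synthetic miR-142-3p, a microRNA best known from blood cells, or with a scrambled RNA as control. Each RNA was used at 150 nM in growth medium with fetal bovine serum, and RNA was taken 72 hours later. About 60% of the cells took up the RNA by the submitters' estimate, so each sample mixes transfected and untransfected cells, and all samples come from the same line. The labels name 6 mimic and 4 scramble replicates as separate transfections. Only scramble titles are marked as a re-analysis, without saying of what.

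In skeletal muscle, proteins are marked for the proteasome by E3 ubiquitin ligases, which bring a substrate to a ubiquitin-carrying enzyme. Trim63 (MuRF1) and Fbxo32 (atrogin-1, the substrate receptor of a cullin complex) are the ligases classically induced in wasting muscle, and FoxO transcription factors, held out of the nucleus by Akt, drive both genes. Myostatin, a secreted TGF-beta family member, signals through activin receptors and Smad proteins and limits muscle mass. Trim63, Trim54, Trim55 and Trim72 also belong to the normal differentiated fibre, where they sit on sarcomere, microtubule or membrane.

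The mature microRNA is shown because it is the agent under test. The sequence is that of the RefSeq table of assembly GRCm38.p6, at chr11:87756903-87756925 on the plus strand, and the capitals mark the seed, bases 2 to 8. The sequence of the purchased mimic itself and the level of the microRNA in the cells were not analysed here.
mmu-miR-142a-3p: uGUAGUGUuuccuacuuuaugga

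By the file headers, 1 slide carried all samples at 5 array positions, and every position was read by the scanner on 2 days, which makes 10 scans. Mimic replicates 1 and 4 share array 1, 2 and 5 share array 2, and 3 and 6 share array 3, while scramble replicates 1 and 3 share array 1 and 2 and 4 share array 2. The 2 scans of a position were averaged, which left n = 3 mimic arrays and n = 2 scramble arrays, and this number limits the precision. Nothing in the headers ties a position to a culture. The p-values weigh the difference between groups against the spread between arrays only, and some or all of that spread may be technical. Of 59305 spots that are not controls, the scanner software called 25.4% to 34.6% well above background on each scan, and such probes are called detected below. The scan of mimic replicate 4 stands apart in its background: the scanner software marked the local background of 9165 of its spots as non-uniform, against 0 to 769 on each other scan. Of the 210 readings of member spots 5 carry this mark, all on that scan, and they belong to Trim63, Trim54 and Fbxo32. Results that rest on them are given with and without that scan. All levels below are log2 of the processed signal minus the 75th percentile of the scan, so that 0 is the level of that percentile, and levels of different probes are not set against each other.

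Of the 10 genes 3 passed the test, all of them lower with the mimic: Srpk3, Trim63 and Trim72. Fbxo32, Trim54 and Foxo1 were measured and did not pass, and Trim55, Asb2, Foxo3 and Mstn were too dim to be tested. A gene entered the test if 4 or more of the 10 scans detected a probe of it, and 6 genes did. Over all 13677 genes tested, 9.56% passed at an adjusted p below 0.05 (limma), 3.82% as lower and 5.73% as higher with the mimic. For Srpk3, Trim63, Trim72 and Trim54 the 4 scramble scans alone would have met the filter, so the genes that entered it are not a neutral sample of the 10 and their common direction is no support. Srpk3 entered through the scramble scans only. Trim54 and Foxo1 had unadjusted p-values of 0.0468 and 0.039 in the same limma fit, on the side of 0.05 where 25.3% of all genes lay. In 4 of the 6 the mimic and scramble arrays did not overlap, as in 42.8% of all genes.

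**Figure D1:**
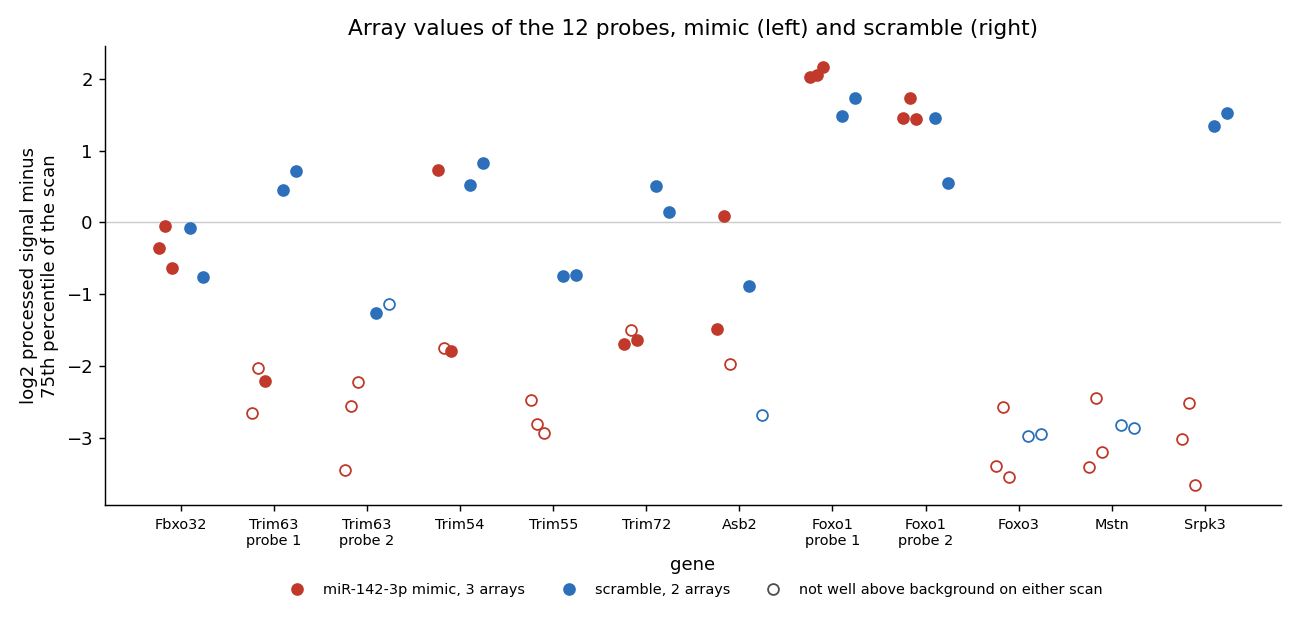
Normalised log2 level (processed signal minus the 75th percentile of the scan) of each of the 12 probes, with a point per array: 3 mimic arrays in red on the left and 2 scramble arrays in blue on the right of each probe. Open points were not well above background on either scan of the array. Both scramble points of Trim63 probe 1, Trim72 and Srpk3 stand above all mimic points, Foxo1 probe 1 shows the opposite order, and Trim54 has 1 mimic point at the scramble level.

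Trim63 encodes MuRF1, a RING-type ligase of the sarcomere with myosin and troponin among its reported substrates. Its first probe, at chr4:133885025-133885084 in the mm9 coordinates of the files, read −2.66, −2.02 and −2.21 on the mimic arrays, against 0.46 and 0.72 on the scramble arrays. All 3 mimic arrays lay far below both scramble arrays. The mean was −2.30 ± 0.32 with the mimic (SD, n = 3) and 0.59 ± 0.19 with the scramble (SD, n = 2), a fitted fall of 7.40-fold (log2 difference −2.89, 95% limits −3.45 to −2.33, limma adjusted p = 0.0002814). On the first day the processed signal was 63.7, 47.4 and 90.5 on mimic scans and 298 and 281 on scramble scans. On the second day it was 14.7, 28.0 and 21.2 on mimic scans and 189 and 262 on scramble scans. It was detected on only 1 of 6 mimic scans, against 4 of 4 scramble scans, and the size of the fall depended on how background is handled. The log2 difference was −2.23 in the scans of the first day, −3.55 in those of the second, and −1.29 with another background correction (normexp), each with an adjusted p below 0.05 (limma). Without the scan of mimic replicate 4 it was −2.56 (limma adjusted p = 0.000729). Since the arrays hold RNA of a whole culture, fewer cells expressing a gene and less RNA of it per cell cannot be told apart, here and for every gene below.

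The second Trim63 probe, at chr4:133881557-133881616, lies upstream of the first. It is shown because it reads another stretch of the transcript.
Trim63 probe 2: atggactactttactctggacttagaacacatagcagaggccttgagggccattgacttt
It read −3.45, −2.55 and −2.23 on the mimic arrays, against −1.27 and −1.14 on the scramble arrays. The groups again did not overlap, with the mimic lower. It was detected on 0 of 6 mimic scans and 1 of 4 scramble scans and was not tested. Its scramble readings were thus mostly not detected either, so no bound is given for this probe. For the bounds given below, each array of the dimmer group was given a floor, or its own reading where higher. The group means were then compared. The floor was the lowest level at which any probe on a scan was detected, averaged over the array's scans. Some readings above such levels were not detected, as Asb2 on mimic replicate 2 at 0.01, so the bounds hold only against that floor.

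Trim54 encodes MuRF3, a relative of MuRF1 that associates with microtubules and the Z-disc. Its probe, at chr5:31438425-31438484, is shown because the result changed when a single reading of it was left out.
Trim54 probe: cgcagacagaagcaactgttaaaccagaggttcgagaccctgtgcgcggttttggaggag
It read 0.73, −1.75 and −1.78 on the mimic arrays, against 0.53 and 0.83 on the scramble arrays. Mimic array 1 lay between the 2 scramble arrays and the other two mimic arrays lay well below them. The mean was −0.93 ± 1.44 with the mimic and 0.68 ± 0.22 with the scramble (SD, n = 3 and 2). The log2 difference was −1.61, with 95% limits of −3.19 to −0.03 and an adjusted p of 0.1904 (limma).

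The high mimic value came from 1 of the 2 scans of that array. The processed signal of the Trim54 spot on mimic array 1 was 1172 on the second day and 87.7 on the first, a 13.4-fold gap between scans of the same spot. On the other mimic scans it was 62.6, 80.0, 31.2 and 43.4, and on the scramble scans 290, 318, 215 and 270. The local background around the 1172 reading was 172.5 intensity units, against 61 to 92.5 on the other 9 scans, and it is 1 of the readings marked for a non-uniform background. Without the scan of mimic replicate 4 the log2 difference was −2.26 (limma adjusted p = 0.00165), and with all marked spots left out it was also −2.26 (limma adjusted p = 0.000811). On the first scan day alone it was −2.07 (limma adjusted p = 0.00106), and on the second −1.16 (limma adjusted p = 0.628). Trim54 was detected on 3 of 6 mimic scans and on 4 of 4 scramble scans.

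**Figure D2:**
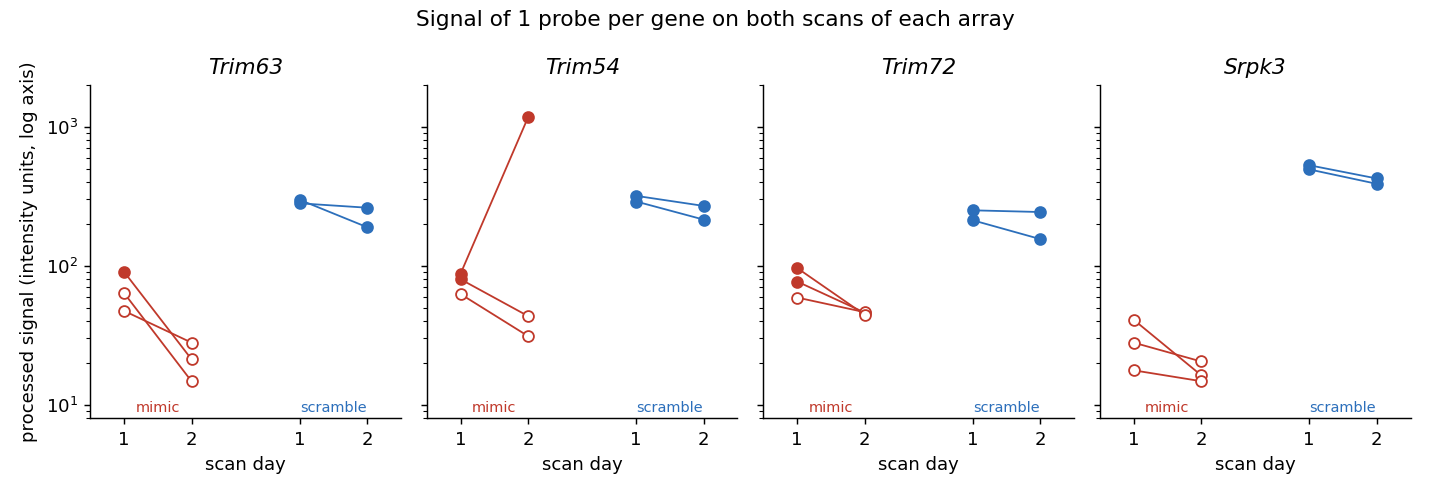
Processed signal (intensity units, log axis) of the first probe of Trim63 and the probes of Trim54, Trim72 and Srpk3 on the first and second scan day, with the mimic arrays in red on the left, the scramble arrays in blue on the right, and a line joining the 2 scans of an array. Open points were not well above background. The Trim54 reading of 1172 on the second day is the only mimic point above a scramble point of the same probe.

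Trim55 encodes MuRF2, a relative of MuRF1 found with titin and microtubules while sarcomeres assemble. The probe at chr3:19574481-19574540 read −2.47, −2.80 and −2.93 on the mimic arrays, against −0.74 and −0.73 on the scramble arrays. The groups did not overlap. It was detected on 0 of 6 mimic scans and 3 of 4 scramble scans, so it missed the filter by 1 scan and was not tested. As a bound it was at least 1.63-fold lower with the mimic. When no filter was applied, 423 of 34607 genes passed, Trim55 among them at a log2 difference of −1.998 (limma adjusted p = 0.0168). Asb2, Foxo3 and Mstn did not pass there (limma adjusted p = 0.965 for each). The mimic side of the Trim55 value is background readings, so the size of the fall is given by the bound only.

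Trim72 encodes MG53, which gathers vesicles at membrane wounds and also acts as a ligase on the insulin receptor substrate Irs1. Its probe, at chr7:135154841-135154900, read −1.70, −1.50 and −1.63 on the mimic arrays, against 0.51 and 0.14 on the scramble arrays. The mimic arrays lay close together and below both scramble arrays. The mean was −1.61 ± 0.10 with the mimic (SD, n = 3) and 0.33 ± 0.26 with the scramble (SD, n = 2), a fitted fall of 3.83-fold (log2 difference −1.94, 95% limits −2.42 to −1.46, limma adjusted p = 0.000822). Both scan days showed it, with −1.67 on the first and −2.21 on the second. It was detected on 2 of 6 mimic scans and 4 of 4 scramble scans, and normexp background correction gave a log2 difference of −0.92, still past the threshold.

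Fbxo32 encodes atrogin-1, for which MyoD and the translation factor eIF3f are reported substrates. Its single probe, at chr15:58011752-58011811, is printed on the array at 10 spots. The array values were −0.35, −0.05 and −0.64 with the mimic, against −0.08 and −0.76 with the scramble. The groups overlapped, and each had a high and a low array. The mean was −0.35 ± 0.29 with the mimic and −0.42 ± 0.48 with the scramble (SD, n = 3 and 2). The log2 difference of 0.08 had 95% limits of −0.56 to 0.71 and did not pass (limma adjusted p = 0.895). The sign of this difference is not settled: it was −0.41 among the 3 arrays of the first slide row and 0.71 between the 2 arrays of the second, which allow no test, and −0.058 with the percentile taken over probes detected on all 10 scans. Without the scan of mimic replicate 4 it was 0.13, and without its marked spots 0.06.

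Within a scan the Fbxo32 spots spread widely. The SD of the log2 values of the spots was 0.14 to 0.27 on the mimic scans and 0.15 to 0.41 on the scramble scans. Their signal ran from 94.7 to 221 on mimic scans and from 49.9 to 223.5 on scramble scans. The probe was detected on 6 of 6 mimic scans and 3 of 4 scramble scans.

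**Figure D3:**
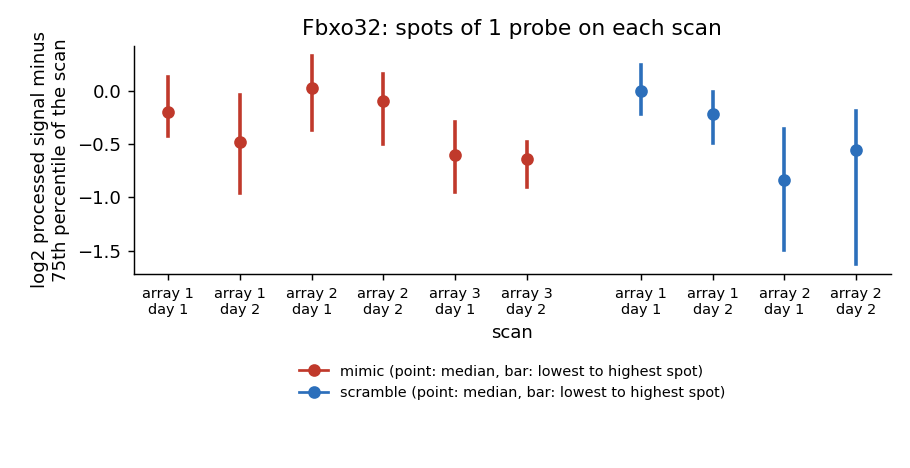
Normalised log2 level of the Fbxo32 spots on each scan, with the point at the median and the bar from the lowest to the highest spot, for 6 mimic scans in red on the left and 4 scramble scans in blue on the right. The 2 scans of an array stand beside each other and the ranges of both groups overlap.

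Asb2 encodes the substrate receptor of a cullin-5 ligase that targets filamins during muscle differentiation. The probe, at chr12:104559752-104559811, read −1.48, 0.08 and −1.98 on the mimic arrays, against −0.89 and −2.68 on the scramble arrays. The groups overlapped. It was detected on 2 of 6 mimic scans and 1 of 4 scramble scans and was not tested.

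Foxo1 encodes the FoxO factor that, in muscle, switches on atrophy genes and restrains differentiation. Its first probe is shown because it stood for the gene in the test.
Foxo1 probe 1: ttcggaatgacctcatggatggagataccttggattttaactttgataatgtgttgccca
This probe, at chr3:52150183-52150242, read 2.03, 2.06 and 2.17 on the mimic arrays, against 1.48 and 1.73 on the scramble arrays. All mimic arrays lay above both scramble arrays. The mean was 2.09 ± 0.07 with the mimic (SD, n = 3) and 1.605 ± 0.18 with the scramble (SD, n = 2). The log2 difference of 0.48, or 1.40-fold, had 95% limits of 0.03 to 0.93 and did not pass over all genes (limma adjusted p = 0.173). In 1 of 23 alternative settings it passed, when the 10 scans were counted as 10 samples (limma adjusted p = 0.00875), which takes 2 scans of an array as separate samples.

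The second Foxo1 probe, at chr3:52153289-52153348, read 1.45, 1.74 and 1.43 on the mimic arrays, against 1.45 and 0.55 on the scramble arrays. Scramble array 1 lay within the mimic range, and its scans gave signals of 389.7 and 576.8. The log2 difference of this probe was 0.54 (limma over all probes, adjusted p = 0.2838), in a fit in which 9.2% of 17455 probes passed. Both probes were detected on all 10 scans and differed in the same direction, with neither past the threshold.

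Foxo3, the FoxO factor most often tied to autophagy in muscle, and Mstn were at background. The Foxo3 probe, at chr10:41905610-41905669, had signals of 15.5 to 33.3 on mimic scans and 16.1 to 28.2 on scramble scans. The Mstn probe, at chr1:53124482-53124541, had signals of 16.7 to 36.2 on mimic scans and 16.6 to 30.9 on scramble scans. Neither was well above background, that is detected, on any scan, so no difference can be read for either gene.

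Srpk3 encodes a muscle SR-protein kinase whose gene is driven by MEF2 in mouse muscle. Its probe, at chrX:71024011-71024070, read −3.01, −2.52 and −3.65 on the mimic arrays, against 1.34 and 1.53 on the scramble arrays. The groups were far apart. The signal was 14.8 to 40.9 on mimic scans and 389 to 529 on scramble scans. The gene was detected on 0 of 6 mimic scans, where it was not well above background, and on 4 of 4 scramble scans, so only a bound is given: it was at least 7.32-fold lower with the mimic (measured means −3.06 ± 0.57 and 1.43 ± 0.13, SD, n = 3 and 2; limma adjusted p = 0.000139). It entered the test only through the group in which it was high, and the mimic side of the test is background readings.

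**Figure D4:**
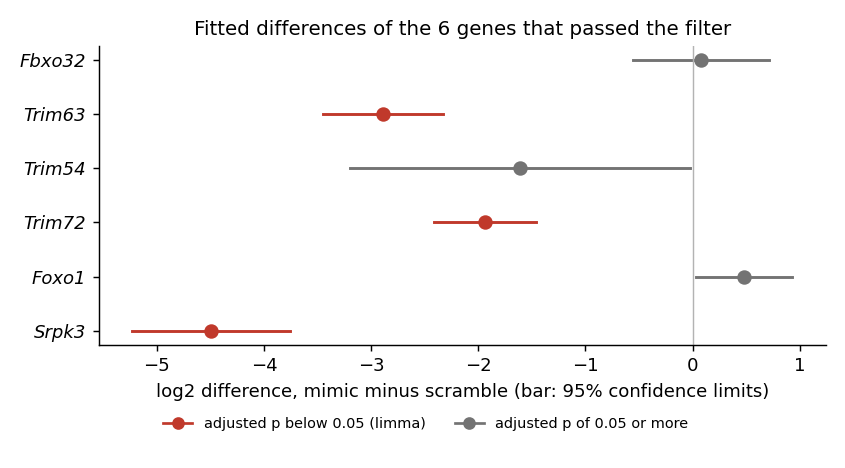
Fitted log2 difference, mimic minus scramble, of the 6 genes that entered the test, with 95% confidence limits from limma. Trim63, Trim72 and Srpk3, in red, passed an adjusted p of 0.05 and lie below 0; Fbxo32, Trim54 and Foxo1, in grey, did not pass. The point of Srpk3 is a fitted value, and the bound for it is at least 7.32-fold.

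By the root mean square difference of array deviations over the 5 arrays, genes near to Trim63 were H19 (0.142), an imprinted noncoding RNA, and Enho (0.145). Nearest to Trim72 were Rarres2 (0.066), Cox8b (0.092) and Tnni2 (0.096), of which Tnni2 encodes a fast troponin I. Nearest to Srpk3 were Pdlim3 (0.291), Ramp3 (0.295) and Csrp3 (0.307), of which Pdlim3 and Csrp3 encode Z-disc proteins. Over 5 arrays this measure mostly reads the difference between the 2 groups, and the mimic values of Srpk3 in it are background readings.

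The proximal promoters of the 3 genes that passed are shown for the letters they hold. These genes were picked by the test, so their common direction follows from the choice. Each is the stretch of 250 bases before the gene's start in the RefSeq table of assembly GRCm38.p6, which holds windows for 8 of the 10 genes. Capitals mark matches to 3 motifs searched on both strands: the E-box CAGCTG bound by myogenic factors, the FoxO site TGTTTAC, and the MEF2 consensus.
Trim63 promoter (chr4:134314870-134315119, plus strand): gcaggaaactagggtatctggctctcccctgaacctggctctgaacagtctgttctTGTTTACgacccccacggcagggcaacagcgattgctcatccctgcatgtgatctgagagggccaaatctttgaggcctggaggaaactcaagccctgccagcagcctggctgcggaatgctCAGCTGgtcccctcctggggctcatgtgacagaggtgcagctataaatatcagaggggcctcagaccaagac
Trim72 promoter (chr7:128004128-128004377, plus strand): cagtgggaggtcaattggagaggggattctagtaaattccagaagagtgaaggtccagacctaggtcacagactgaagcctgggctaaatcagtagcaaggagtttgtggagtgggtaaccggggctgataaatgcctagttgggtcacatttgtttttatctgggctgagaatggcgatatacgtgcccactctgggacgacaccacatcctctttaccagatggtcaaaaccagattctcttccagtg
Srpk3 promoter (chrX:73774155-73774404, plus strand): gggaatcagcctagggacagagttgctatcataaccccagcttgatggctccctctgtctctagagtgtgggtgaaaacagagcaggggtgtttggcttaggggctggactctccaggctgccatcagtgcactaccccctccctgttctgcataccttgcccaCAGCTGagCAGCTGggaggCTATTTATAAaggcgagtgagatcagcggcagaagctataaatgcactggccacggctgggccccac
The Trim63 window holds the FoxO letters at 194 to 188 bases and an E-box at 72 to 67 bases before the start. The Srpk3 window holds E-boxes at 86 to 81 and 78 to 73 bases and a MEF2 match, CTATTTATAA, at 67 to 58 bases before the start, with no overlap between them. The Trim72 window holds none of the 3. Among the other windows only that of Trim54 has a match, an E-box at 113 to 108 bases before the start. Of all 32851 windows of this length, 13% hold CAGCTG, 3.17% hold TGTTTAC and 2.92% hold the MEF2 consensus. A match is a description of the letters and not a site.

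Genes that encode reported substrates or partners of these ligases included the largest falls of the related lists. Of 10 measured genes of 11 listed, 4 fell and none rose, against 3.82% lower and 5.73% higher over all genes tested. The median log2 difference was −0.14, against 0.09 over all genes tested. Ttn, the giant sarcomere protein to which MuRF proteins bind, read 1.33, 0.77 and 0.14 on the mimic arrays, against 5.29 and 4.83 on the scramble arrays, a fall of 19.9-fold (limma adjusted p = 0.000212). Its other 3 probes had log2 differences of −3.43, −2.62 and −1.64. Myod1, the myogenic factor reported as an atrogin-1 substrate, read 1.53, 1.86 and 1.68 against 4.505 and 5.38, a fall of 9.51-fold (limma adjusted p = 0.000307). Dysf, a membrane repair protein that works with MG53, fell 3.16-fold (limma adjusted p = 0.00247). Des, the muscle intermediate filament protein, fell 2.49-fold (limma adjusted p = 0.0188), a call lost in 6 of 23 settings. Without mimic array 1, 2 or 3 or scramble array 2 its log2 difference was −1.39 to −0.94 (limma adjusted p = 0.0521 to 0.0918). The other 6 did not pass, among them Irs1 at 0.82 and the translation factor gene Eif3f at −0.35 on the log2 scale. Without scramble array 1, which leaves 1 scramble array, more genes were called in this list and over the whole array. The list median was then −0.21, against 0.16 over all genes.

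Other ligases and cofactors of muscle mostly did not pass. Of 19 measured of 21 listed, 1 fell and none rose, against 3.82% lower and 5.73% higher over all genes tested. The median log2 difference was −0.05. The one that fell was Klhl41, a kelch protein of the sarcomere and adaptor of cullin-3, which read −0.16, −0.08 and −0.29 on the mimic arrays, against 1.94 and 1.95 on the scramble arrays. That is a fall of 4.37-fold (limma adjusted p = 0.000349). The next in order were the ligase gene Nedd4l at a log2 difference of 0.78 (limma adjusted p = 0.0532), the deubiquitinase gene Usp19 at −0.55 and the ligase gene Cblb at 0.65. The 11 cullin-RING genes that atrogin-1, Asb2 and Klhl41 need for their complexes were all measured and none passed the limma test. Their median was 0.03, and 1 had an unadjusted p below 0.05 (limma), against 25.3% of all genes tested. The first of them in order were Cul1 at −0.53, Cul3 at −0.41 and the elongin gene Eloc at 0.48. Of 31 proteasome subunit genes, all measured, none passed the limma test and 0 had an unadjusted p below 0.05, against 25.3% of all genes. Their log2 differences lay between −0.50 and 0.41, and their median was −0.04. The first in order were Psmd6 at −0.43, Psmd3 at −0.50 and Psmc4 at −0.43. Without scramble array 1, more genes were called in each of these lists and over the whole array. The medians of the other ligases, the cullin-RING genes and the proteasome were then 0.05, 0.09 and −0.06, against 0.16 over all genes.

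In the FoxO family and its regulators, 1 of 13 measured genes of 17 listed rose and 1 fell, with a median log2 difference of 0.04. Over all genes tested, 5.73% passed as higher and 3.82% as lower. Foxo6, a FoxO member best known from brain, read 1.75, 2.15 and 2.14 on the mimic arrays, against 3.34 and 3.47 on the scramble arrays, a fall of 2.63-fold (limma adjusted p = 0.00578). Its call was lost in 2 of 23 settings. These were no filter, at a log2 difference of −1.39 (limma adjusted p = 0.0895), and slide row 1 alone, at −1.395. Sgk1, a kinase that phosphorylates FoxO proteins as Akt does, rose 1.90-fold (limma adjusted p = 0.0384), but it lost this call in 9 of 23 alternative settings. Among these were leaving out mimic array 1, 2 or 3 or scramble array 2, with log2 differences of 0.77 to 1.04 against 0.92 (limma adjusted p = 0.0811 to 0.158), and taking slide row as a block (0.91, limma adjusted p = 0.0839). Without scramble array 1, more genes were called in this list and over the whole array, and the list median was 0.08, against 0.16 over all genes. Foxo4 was too dim to be tested. Stk4 at −0.42 and Pdpk1 at 0.57 on the log2 scale did not pass.

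Among 21 measured of 23 genes reported as FoxO targets in muscle or other cells, leaving aside the ligases, 2 rose and none fell. Over all genes tested, 5.73% passed as higher and 3.82% as lower. The median log2 difference of the list was 0.09. Bnip3, a mitophagy receptor, read 6.01, 6.04 and 5.90 on the mimic arrays, against 4.96 and 4.09 on the scramble arrays, a rise of 2.74-fold (limma adjusted p = 0.0147). Its other probe differed by 1.49 on the log2 scale, and 4 of 23 settings ended its call, including those without mimic array 1 (1.44, limma adjusted p = 0.07) and without mimic array 2 (1.43, limma adjusted p = 0.0533). Pdk4, which holds back glucose oxidation, read 1.29, 1.65 and 1.68 on the mimic arrays, against 0.62 and 0.44 on the scramble arrays, a rise of 2.02-fold (limma adjusted p = 0.0231), lost in 8 of 23 settings. Without mimic array 1, 2 or 3 or scramble array 2 its log2 difference was 0.93 to 1.14 (limma adjusted p = 0.0522 to 0.109), and with slide row as a block it was 1.02 (limma adjusted p = 0.0567). The autophagy genes Gabarapl1 at 0.89 (limma adjusted p = 0.0555) and Bnip3l at 0.73, and the cyclin gene Ccng2 at 1.51 on the log2 scale, did not pass. The count for this list was 0 without mimic array 1 or mimic array 2, where 550 and 663 genes passed over the whole array. Without mimic array 3 the count was 1, a gene called as higher, and 610 genes passed over the whole array. Without scramble array 1, more genes were called in this list and over the whole array, and the list median was 0.25, against 0.16 over all genes. Without scramble array 2 the list median was −0.08, against 0.02 over all genes.

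In the myostatin and activin pathway 14 of 21 listed genes were measured, 1 fell, none rose, and the median log2 difference was −0.07. Over all genes tested, 3.82% passed as lower and 5.73% as higher. Acvr2a, a receptor that binds activin and myostatin, read −1.44, −1.37 and −1.46 on the mimic arrays, against −0.17 and −0.52 on the scramble arrays, a fitted fall of 2.11-fold (limma adjusted p = 0.0148). It was detected on 1 of 6 mimic scans and 4 of 4 scramble scans, and the call was lost in 8 of 22 settings. Without mimic array 1, 2 or 3 its log2 difference was −1.11 to −1.06 (limma adjusted p = 0.0528 to 0.0766). With normexp it was −0.595 (limma adjusted p = 0.0924), and over 10 scans, blocked by scan day with a random term for array, −1.08 (limma adjusted p = 0.0559). The inhibitor gene Fst and the ligand gene Gdf11 were too dim to be tested. Dcn, a matrix protein that can bind myostatin, at 0.82, the signal transducer gene Smad2 at −0.64 and the activin subunit gene Inhbb at 0.66 did not pass. Leaving out scramble array 1 leaves 1 scramble array whose spread is assumed to be that of the mimic arrays. More genes were then called here and over the whole array, and the pathway median was 0.01, against 0.16 over all genes. Without mimic array 1, 2 or 3 none was called. Of 19 listed relatives of Srpk3 and Asb2, 7 were measured and none passed the limma test. An unadjusted p below 0.05 (limma) was found for 2 of them, and for 25.3% of all genes tested. The 2 were Srpk2 at 0.77 (limma adjusted p = 0.0736) and Asb5 at −0.77 (limma adjusted p = 0.0765) on the log2 scale. Asb8 was next at −0.23. Without scramble array 1 the median of these relatives was −0.07, against 0.16 over all genes, and more genes were called among them and over the whole array.

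**Figure D5:**
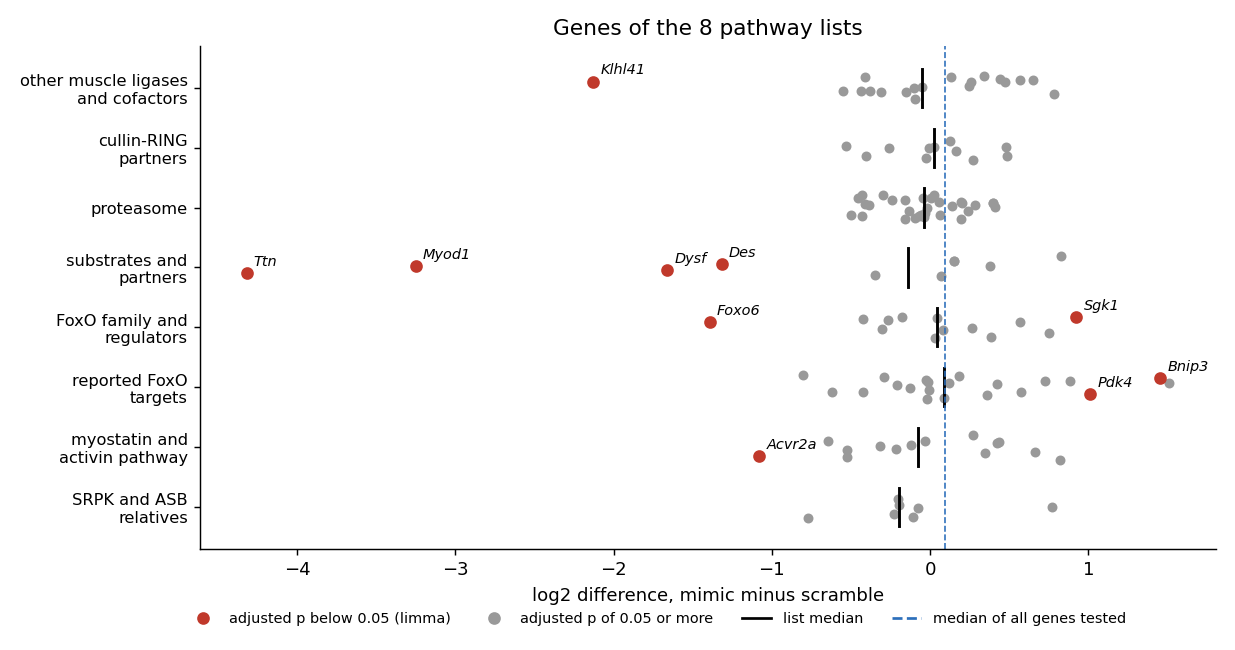
Log2 difference, mimic minus scramble, of each measured gene in the 8 lists of related genes, in red and named where the adjusted p was below 0.05 (limma), with the median of each list as a black bar and the median of all genes tested, 0.09, as a dashed line. Most list medians lie close to 0, and the called falls are Ttn, Myod1, Klhl41, Dysf, Foxo6, Des and Acvr2a.

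Markers of differentiated myotubes moved with Trim63, Trim72 and Srpk3. Of 9 myotube markers, all measured, 8 fell, with a median log2 difference of −4.27. Over all genes tested, 3.82% passed as lower and the median was 0.09. Their summed level, in multiples of the 75th percentile of the scan, was 33.6 to 38.7 on the mimic arrays and 515 to 520 on the scramble arrays. Of 8 myoblast markers 6 were measured and 4 fell, beside the same share over all genes. The summed level of the myoblast markers was 186 to 193 with the mimic and 314 to 361 with the scramble. The myoblast count was 2 without mimic array 1, 2 or 3 or scramble array 2. Pax7 was detected on no scan, and Myf5 on 3 mimic scans and no scramble scan. Of 7 leukocyte markers Itgam, Csf1r and Cd3e were measured and none passed, while Ptprc, Lyz2 and Tyrobp were detected on none of the scans. None of 4 adipocyte markers was detected on any scan. The osteoblast marker Bglap was detected on 1 mimic scan and Sp7 and Ibsp on none, and of 3 endothelial markers only Kdr was measured. The part of these marker changes in the falls of Trim63, Trim72 and Srpk3 was not tested.

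Within the first slide row, with 2 mimic arrays and 1 scramble array, Trim63, Trim72 and Srpk3 had fitted log2 differences of −2.89, −2.18 and −4.67. With a lone scramble array, the spread there comes from the mimic arrays alone, and these are given as values. In the second row, with 1 array a group, the differences were −2.75, −1.64 and −4.04. Those of Srpk3 rest on mimic readings at background.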

How the data were processed

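The deposited scanner files hold linear spot intensities, which per the file headers were background-subtracted and detrended within each array by Agilent Feature Extraction 12.0.0.7 (the submitters' processing notes name 10.7.3.1), with probe positions in mm9. The deposited series matrix holds linear intensity per probe too, with medians from 175.5 to 353.8 and its between-array step not given in the sources used here. It was used as an alternative.

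From these, log2(processed signal) minus each scan's 75th percentile over non-control spots was computed. Non-uniform and population-outlier spots were left out, spots were averaged per probe, and the scans of an array position were averaged, so that 10 scans gave 5 arrays. A probe counted as well above background when at least 0.5 of its spots did and was kept with 4 such scans of 10. The brightest kept probe stood for its gene, which gave 13677 genes. Names were updated through RefSeq tables of GRCm38.p6 (28026 probes by accession, 3418 by symbol, 295 by synonym, 23942 kept as in the file). No column was without a sample. Groups were compared with limma 3.58.1 (lmFit, eBayes; 3 residual and 5.01 prior degrees of freedom) in R 4.3.3, two-sided; p-values were adjusted by Benjamini-Hochberg across all genes, and 0.05 was the threshold. On simulated data (13677 genes, 200 changed, 10 runs) the fit found 60% of the 4-fold changes, 5.07% of the 2-fold and 0% of the 1.5-fold changes, and 4.2% of its calls were false. Fewer genes were changed there than the 1307 called here, and the adjustment depends on that share, so these rates may differ for these data.

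Over 12637 probes, r was 0.9903 to 0.9929 between scans of a position and 0.9117 to 0.992 between other scans. Samples of the same replicate number had deviations that correlated at −0.27 to 0.19 (4 pairs). The lowest was the only such pair from different scan days, so this check mixes in scan day and cannot exclude pairing. The labels name no pairs, and the samples were not treated as paired.

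The members and lists were chosen with earlier results of these data known. Named genes are all members with all probes, every called gene of the 8 lists and up to 3 uncalled genes of each in order of p, and the 3 nearest genes in array profile for each called member; some genes under this rule are not reported here. Fst, Gdf11, Foxo4 and the markers were named outside that rule after their values were seen. Alternatives covered background correction, scaling, filter, probe choice, scans, blocks, the deposited matrix, model settings and leaving out each array.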

Additional observations from a re-analysis of the deposited data

Results flagged for a closer look

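The Trim54 probe on the scan of mimic replicate 4 read 2.673 (normalised log2 level), far above the other 5 mimic scans. Its gap to the nearest of them, divided by the range of the group, was 0.792, above Dixon's 95% critical value for 6 samples. Of 24 groups of readings (12 probes in 2 groups) this was the only one, and chance alone marks about 1 in 20. The 6 readings are 2 scans each of 3 mimic arrays and so are not independent samples, which Dixon's rule assumes.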

How the results depend on the processing

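Trim63, Trim72 and Srpk3 kept their direction and stayed past the threshold in 22 of 22 settings in which they were tested, with log2 differences of −3.55 to −1.29, −2.21 to −0.92 and, as fitted values, −4.76 to −2.28. Requiring detection on all 10 scans left 1 of the 10 genes to test, Foxo1, and 0 of them called (limma, Foxo1 at an adjusted p of 0.154; 978 calls over 10336 genes). Trim54 passed when scaled to the array median (−1.55), on the first scan day (−2.07) and with spots of non-uniform background left out (−2.26), and leaving out an array or the scan of mimic replicate 4 gave −2.45 to −1.19, past the threshold without mimic array 1 (−2.45) or that scan (−2.26). Foxo1 passed with 10 scans as samples (0.48). Fbxo32 turned negative with the percentile taken over probes detected on all scans (−0.058) and within slide row 1 (−0.41, chosen after seeing the data, as were the 2 alternatives on that scan's background), and leaving out an array gave −0.26 to 0.42, negative without mimic array 2 (−0.07) or scramble array 2 (−0.26). That percentile moved the median of all genes to −0.04, against 0.09, and the calls to 674 higher and 664 lower, against 784 and 523.

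The count of 1307 genes was 794 with array-median scaling, 423 with no filter, 4254 with 10 scans as samples, 834 with slide row as a block and 693 within slide row 1, where 1 scramble array is assumed to vary like the mimic arrays, as also when a scramble array is left out. Leaving out an array or scan gave 550 to 3728: 550, 663 and 610 without mimic arrays 1, 2 and 3, and 3728 without scramble array 1. With the replicate block over 10 scans the count was 2297, with 3 of the 10 genes called and Trim54 at −1.01, and no call of a member changed. Depth is limited by signal over background: Trim63, Trim72 and Srpk3 were mostly at background with the mimic.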
